A study of Mus musculus with 59 samples.

Results

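Zfp is the mouse symbol for zinc finger protein genes, and the peaks described here are those that the deposited tables assign to a gene named Zfp followed only by digits, on chromosomes 1 to 19 and X. They were 366 of 25827 H3K4me3 peaks, at 299 genes, and 530 of 54354 H3K27ac peaks, at 295 genes. H3K4me3 marks promoters, and H3K27ac marks promoters and enhancers in use. Both were profiled by native chromatin immunoprecipitation with sequencing of snap-frozen endometrial pieces of C57/B6 mice, with a library for each mark from every one of 27 animals. Young animals (n = 7) were 9 to 11 weeks old. Those called aged group 1 (n = 4) had an age of 28 to 36 weeks, those of aged group 2 (n = 6) one of 42 to 48 weeks and those of aged group 3 (n = 10) one of 54 to 65 weeks. All groups share the strain, and no genotype or treatment is labelled. Libraries held 6.835 to 48.29 M reads for H3K4me3 and 7.604 to 16.945 M for H3K27ac, and the median peak at a Zfp gene held 365 and 78 reads. Values below are levels in normalized log2 RPKM, reads scaled for peak length and library total, and changes are log2 differences of group means ± SE from limma, called at a Benjamini-Hochberg adjusted p under 0.05 over all peaks of a mark.

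Most Zfp genes encode proteins with runs of C2H2 zinc fingers that read DNA sequence. Many also carry a KRAB domain, which recruits Trim28 and the H3K9 methyltransferase Setdb1 to silence retroelements and imprinted alleles, and these genes arose by tandem duplication and lie in dense clusters. The symbol also covers zinc finger genes of other kinds: developmental regulators such as Zfp423 and Zfp521, and proteins of RNA binding or protein turnover such as Zfp36 (tristetraprolin). The pieces of tissue hold epithelium, stroma, vessels and leukocytes together, so fewer cells of a type and less of a mark per cell cannot be told apart.

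The promoters that the results turn on are shown as RefSeq gives them on GRCm38.p6, from 250 bases before to 50 after a start, 5′ to 3′ on the gene's strand, with CpG dinucleotides in capitals. Zfp105 (chr9:122922828-122923127, plus strand), Zfp334 (chr2:165388210-165388509, minus strand) and Zfp382 (chr7:30121682-30121981, plus strand) lost marks in aged group 3. The Zfp57 sequence (chr17:37002275-37002574, plus strand) overlaps its peaks of both marks, which also fell. Zfp972 (chr2:177925601-177925900, minus strand) gained both marks.
Zfp105: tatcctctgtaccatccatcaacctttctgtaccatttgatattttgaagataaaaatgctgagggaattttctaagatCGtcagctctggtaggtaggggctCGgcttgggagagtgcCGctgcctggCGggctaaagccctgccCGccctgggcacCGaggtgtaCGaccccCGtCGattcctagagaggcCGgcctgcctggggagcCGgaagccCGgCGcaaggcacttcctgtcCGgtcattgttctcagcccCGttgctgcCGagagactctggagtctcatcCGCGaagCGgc
Zfp334: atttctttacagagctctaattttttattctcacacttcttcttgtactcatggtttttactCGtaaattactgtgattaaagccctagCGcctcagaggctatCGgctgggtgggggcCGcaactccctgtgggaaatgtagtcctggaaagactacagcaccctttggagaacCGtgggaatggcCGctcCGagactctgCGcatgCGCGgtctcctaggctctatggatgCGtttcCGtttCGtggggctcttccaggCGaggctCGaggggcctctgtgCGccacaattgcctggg
Zfp382: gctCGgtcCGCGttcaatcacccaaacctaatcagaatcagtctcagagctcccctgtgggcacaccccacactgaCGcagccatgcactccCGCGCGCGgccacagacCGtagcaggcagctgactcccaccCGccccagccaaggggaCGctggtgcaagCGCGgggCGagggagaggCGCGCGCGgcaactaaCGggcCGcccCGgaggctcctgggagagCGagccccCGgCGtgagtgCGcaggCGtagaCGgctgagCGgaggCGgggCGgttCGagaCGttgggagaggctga
Zfp57: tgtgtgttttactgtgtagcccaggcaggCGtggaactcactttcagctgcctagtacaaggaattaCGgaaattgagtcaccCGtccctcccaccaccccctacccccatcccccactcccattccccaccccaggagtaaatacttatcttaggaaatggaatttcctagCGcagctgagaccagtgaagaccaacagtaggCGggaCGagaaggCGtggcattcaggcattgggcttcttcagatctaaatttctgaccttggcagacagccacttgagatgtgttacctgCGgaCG
Zfp972: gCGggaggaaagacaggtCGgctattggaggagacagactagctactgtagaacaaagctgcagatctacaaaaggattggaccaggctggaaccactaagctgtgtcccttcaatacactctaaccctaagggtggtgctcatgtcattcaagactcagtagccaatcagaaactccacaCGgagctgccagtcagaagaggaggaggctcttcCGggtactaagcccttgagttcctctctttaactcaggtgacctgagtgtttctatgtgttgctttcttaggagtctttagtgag
The Zfp382 sequence held 32 CpG, that of Zfp105 19, that of Zfp334 16, that of Zfp57 9 and that of Zfp972 4. The median over 370 Zfp promoters in the RefSeq table, of 307 genes, was 14, against 7 over all 32851 promoters and 19 over promoters of genes with an H3K4me3 promoter peak.

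A further pair is shown because it was unreadable. Zfp968 (chr2:175372186-175372485, plus strand) and Zfp973 (chr2:176670272-176670571, plus strand) are identical over 299 of 300 bases, with the differing base in capitals.
Zfp968: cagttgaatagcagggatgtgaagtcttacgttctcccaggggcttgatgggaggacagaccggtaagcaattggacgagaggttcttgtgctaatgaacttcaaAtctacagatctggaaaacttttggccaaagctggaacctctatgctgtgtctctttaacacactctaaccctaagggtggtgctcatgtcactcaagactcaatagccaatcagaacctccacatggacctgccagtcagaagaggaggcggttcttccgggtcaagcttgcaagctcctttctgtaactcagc
Zfp973: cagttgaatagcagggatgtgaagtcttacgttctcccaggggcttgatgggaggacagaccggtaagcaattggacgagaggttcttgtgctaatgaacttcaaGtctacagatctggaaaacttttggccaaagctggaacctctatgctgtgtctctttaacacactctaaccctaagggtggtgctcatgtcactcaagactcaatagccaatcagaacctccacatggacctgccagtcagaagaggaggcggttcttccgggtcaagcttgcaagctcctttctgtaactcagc
Promoters of Zfp966 and Zfp967 were identical over all 300 of 300 bases. At all 4 of these genes, at their neighbours Zfp965 and Zfp969 and at Zfp781 on chromosome 10, 1 peak of each mark per gene held 0 reads in every one of the 27 libraries. Zfp973 has a further peak of each mark away from its start that did hold reads, a median of 145 for H3K4me3 and 26 for H3K27ac. In all, 7 of the 366 H3K4me3 and 9 of the 530 H3K27ac peaks were at 0 throughout, as were 124 and 145 peaks in the whole tables. The 6 genes at 0 with an H3K4me3 promoter peak shared 94.69% to 100% of their 75-base windows, the length of a sequencing read, with the promoter of another gene. Of the 232 other Zfp genes with an H3K4me3 promoter peak, 33 shared any window and 5 shared over 90%. How reads with several matches were counted is not given in the sources used here, so no level or change is read from these peaks.

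Most Zfp peaks sat at promoters. Within 1 kb of a RefSeq start lay 290 of the 366 H3K4me3 peaks (79.2%, against 50.9% of all H3K4me3 peaks) and 287 of the 530 H3K27ac peaks (54.2%, against 22.5%). Of 372 Zfp genes in the RefSeq table, 284 had an H3K4me3 promoter peak and 275 an H3K27ac promoter peak. Their promoter peaks were shorter and denser than usual: the median H3K4me3 level was 4.18 against 3.63 over all promoter peaks, at a median length of 1979 against 2387 bases, and the median H3K27ac level was 2.2 against 1.8, at 1950 against 2554 bases. The median SD among young animals was 0.12 for H3K4me3 at Zfp promoter peaks and 0.16 over all promoter peaks. A start of another gene lay within 1 kb of 42 (14.5%) of the H3K4me3 and 45 (15.7%) of the H3K27ac promoter peaks, and a mark there cannot be assigned to either gene.

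The highest H3K4me3 promoter levels were at Zfp418, Zfp369, Zfp638, Zfp938 and Zfp235. Zfp418 ranged from 4.86 to 5.29 in young and from 5.02 to 5.55 in aged group 3, with a change of 0.17 ± 0.08 that did not pass (adjusted p = 0.12). Zfp369 was nearly as high, with medians of 5.14 in young and 5.09 in aged group 3, and its range overlapped that of Zfp418 in both groups. For H3K27ac the highest were Zfp617, Zfp317, Zfp112, Zfp638 and Zfp608. Zfp617 lay between 3.28 and 3.58 in young and between 2.85 and 3.52 in aged group 3. Only Zfp638, an RNA-binding nuclear protein that helps to silence unintegrated retroviral DNA, was among the 5 highest for both marks. The H3K27ac change at Zfp317, -0.32 ± 0.12, barely passed (adjusted p = 0.0487) and missed the threshold without any one of 12 libraries, young replicates 1, 2, 3, 4, 6 and 7 and aged group 3 replicates 1, 2, 6, 7, 8 and 9 (0.0557 to 0.157).

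Base composition and motifs of Zfp promoters were counted next. CCGGAAG, the core bound by ETS factors, was found on either strand in 21.89% of the 370 Zfp promoters, in 8.858% of all promoters and in 14.2% of promoters of genes with an H3K4me3 promoter peak. GCGCATGCG, the Nrf1 core, was in 4.324% against 1.75% of all promoters, and the TATA-type TATAAA in 7.027% against 13.62%. In promoters of genes with an H3K4me3 promoter peak the shares were 3.004% and 7.632%. The TATAAA share of Zfp promoters is thus near that of marked promoters in general. None of the 3 motifs contains another. Zfp genes inside and outside clusters held CCGGAAG in 21.14% and 22.56% of their promoters, and Zfp genes without an H3K4me3 promoter peak in 10.71%. CCGGAAG lies in the promoters of Zfp105, which fell, and of Zfp972, which rose. The Zfp334 promoter printed above holds the Nrf1 core, as do 12.5% of the 48 promoters of Zfp genes whose H3K4me3 promoter peak fell and 4.895% of the 286 of Zfp genes with an H3K4me3 promoter peak. CCGGAAG was in 12.5% of the same 48 and in 25.17% of the 286. Among genes with reads, the median H3K4me3 level was 4.37 for the 59 with CCGGAAG and 4.20 for the 173 without, with quartiles that overlap (3.98 to 4.60 and 3.85 to 4.55). These matches are descriptions of letters in a 300-base window.

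How the marks at Zfp genes change with age was asked by setting aged group 3 against young. At promoters more Zfp peaks fell than rose, as over all promoter peaks. H3K27ac fell at 90 of 287 Zfp promoter peaks (31.4%) and rose at 3 (1.05%), where 19.3% of all promoter peaks fell and 6.75% rose. H3K4me3 fell at 53 of 290 (18.3%) and rose at 5 (1.72%), where 18.3% of all promoter peaks fell and 8.99% rose. The H3K4me3 share that fell was thus that of promoters in general. Changes were small: the median H3K27ac change over Zfp promoter peaks was -0.22, with 87.8% below 0, against -0.14 and 69.4% over all promoter peaks. The median H3K4me3 change was -0.07, with 70.7% below 0, against -0.04 and 58.7%. Whether Zfp promoters differ from other promoters was not tested, and the shares stand as descriptions. The 3 H3K27ac gains were at Zfp972, Zfp652 and Zfp459, and the 5 H3K4me3 gains at Zfp972, Zfp704, Zfp560, Zfp599 and Zfp24, all named here after their values were seen. The Zfp459 peak and 1 of the 5 H3K4me3 peaks also lie within 1 kb of a start of another gene. The H3K4me3 gains numbered 2 without young replicate 1, 3 or 7 or aged group 3 replicate 2 or 8, 3 without young replicate 2 or 4 or aged group 3 replicate 5, 6 or 9, 8 without aged group 3 replicate 3 and 9 without replicate 10. The H3K27ac gains numbered 1 without young replicate 1, 2 or 3 or aged group 3 replicate 6 or 8, 5 without aged group 3 replicate 3 or 4 and 7 without replicate 10.

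Away from promoters no single direction prevailed. H3K4me3 rose at 12 of 76 such Zfp peaks and fell at 8, where 19.7% of all peaks away from promoters rose and 14.5% fell. H3K27ac rose at 31 of 243 and fell at 27, where 16.6% rose and 13.6% fell. This balance moved with the scaling: on values as deposited, 5 H3K4me3 peaks rose and 8 fell, and 31 H3K27ac peaks rose and 43 fell. Without young replicate 3, 7 H3K4me3 peaks rose. The 8 that fell became 5 without young replicate 1 or 6 or aged group 3 replicate 2 or 7, 4 without young replicate 7 and 13 without aged group 3 replicate 10. Over all Zfp peaks of both kinds, 17 H3K4me3 peaks rose and 61 fell (background 14.2% and 16.4% of all peaks), and 34 H3K27ac peaks rose and 117 fell (background 14.4% and 14.9%). The count of 17 became 9 without young replicate 3 and 11 without young replicate 1, 2 or 7 or aged group 3 replicate 2 or 8.

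**Figure D1:**
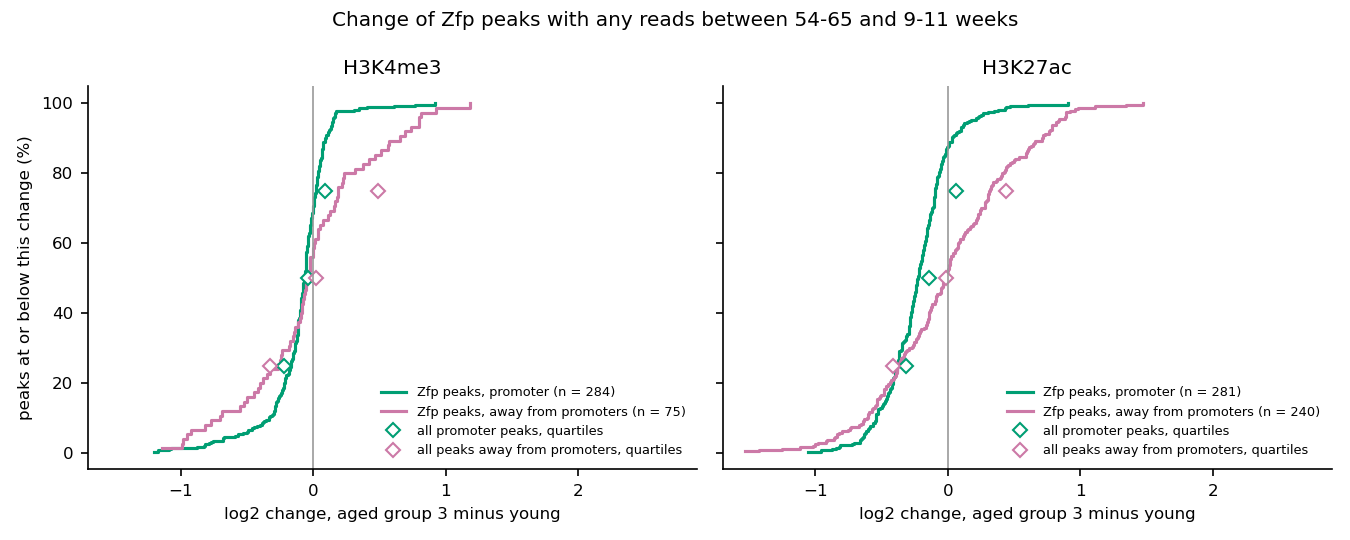
Cumulative share of Zfp peaks (y axis, %) at or below each log2 change between aged group 3 and young (x axis), for H3K4me3 (left) and H3K27ac (right), with peaks at 0 reads throughout left out. Green lines are promoter peaks, pink lines peaks away from promoters, and open diamonds the quartiles of all peaks of each kind; over all 287 H3K27ac promoter peaks 87.8% are below 0.

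The animals of aged group 3 did not carry the promoter change equally. The median H3K27ac difference from the young mean over the 287 Zfp promoter peaks was -0.41 in aged group 3 replicate 6, -0.39 in replicate 7, -0.34 in replicate 2, -0.32 in replicate 9, -0.27 in replicate 8 and -0.20 in replicate 5. It was -0.14 in replicate 10, -0.08 in replicate 1, -0.02 in replicate 4 and 0.02 in replicate 3, while young libraries ran from -0.04 to 0.05. Replicates 3 and 4 thus lay within the young range. The median over all H3K27ac promoter peaks was low in the same animals, at -0.27 in replicate 6, -0.22 in replicate 7, -0.21 in replicate 2, -0.19 in replicate 9, -0.13 in replicate 8 and -0.11 in replicate 5. In replicate 10 it was -0.21, lower than at the Zfp promoters. Over the Zfp promoter peaks, aged group 2 ran from -0.19 to 0.04 and aged group 1 from -0.11 to 0.02, overlapping young at its upper end. For H3K4me3 the lowest were again replicates 6 and 7, at -0.15, while replicates 3, 4 and 10 lay between -0.007 and 0.005, within the young range of -0.01 to 0.02. Markers of tissue makeup also differed between young and aged group 3, and how they relate to these values was not tested. Of 16 epithelial markers with an H3K4me3 promoter peak (20 listed) 14 rose and 0 fell, and of 15 stromal markers (20 listed) 0 rose and 14 fell. The mean epithelial level ran from 2.44 to 3.13 in young and from 2.5 to 4 in aged group 3, and the stromal one from 2.93 to 3.47 and from 1.45 to 3.51. Of 12 leukocyte markers 6 rose, and of 12 smooth muscle markers 6 fell. The epithelium minus stroma score, the difference of the mean marker levels, was taken from the peaks of each mark on its own. For H3K4me3 it ran from -1.02 to 0.07 in young and from -1.01 to 2.54 in aged group 3. It was above 1 in 7 of the 10 aged animals, replicate 1 included, and at -1.01 in replicate 10. For H3K27ac 8 of 14 epithelial markers rose and 0 fell, and of 15 stromal markers 0 rose and 14 fell. The H3K27ac score ran from -0.80 to 0.48 in young and from -0.89 to 2.02 in aged group 3. With the score of its own mark in the model, 0 Zfp peaks fell and 2 rose for H3K4me3, and 1 fell and 2 rose for H3K27ac. The score itself differs between the groups, and counts over all peaks under this fit are not given here. Whether Zfp peaks lost calls more often than other peaks is therefore not shown. Beyond that fit, the part of tissue makeup in the result was not tested.

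**Figure D2:**
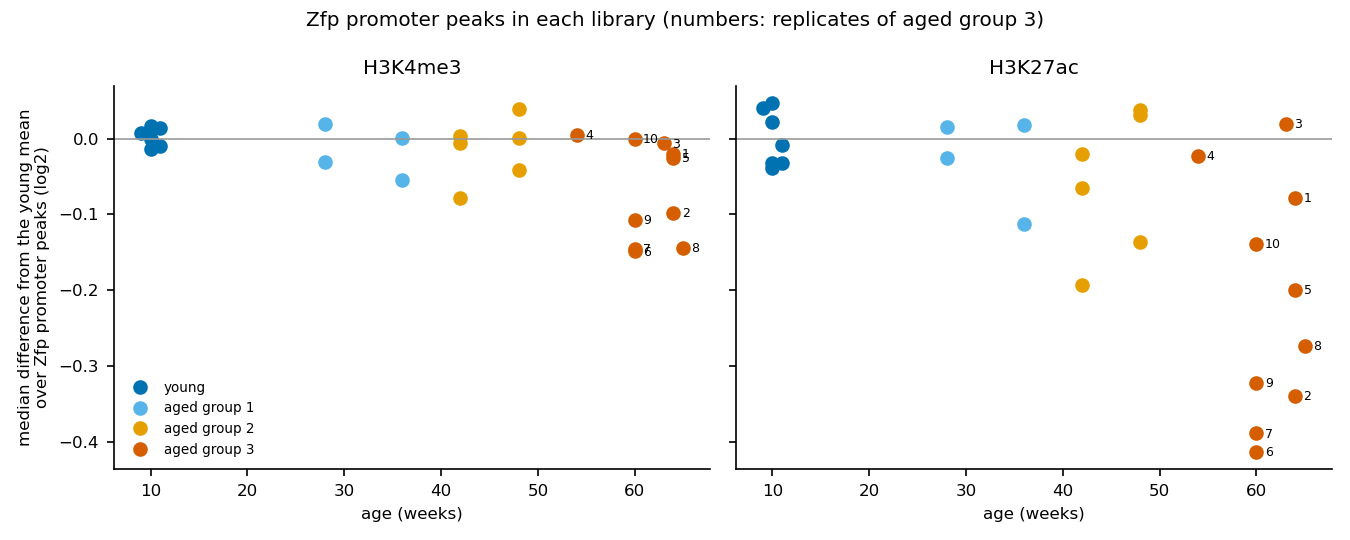
Median difference from the young mean over Zfp promoter peaks (y axis, log2) against age in weeks (x axis), 1 point per library, for H3K4me3 (left) and H3K27ac (right). Numbers are replicates of aged group 3, whose H3K27ac points spread from 0.02 to -0.41.

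Each library name carries a code that opens with a digit whose meaning the labels do not give, and digit 6 was held by 1 animal of aged group 2 and 3 of aged group 3 (replicates 7, 8 and 9) but by no young animal. Comparing within a digit, the median H3K27ac difference between aged group 3 and young over the Zfp promoter peaks was -0.39 for digit 2, -0.004 for digit 3, -0.06 for digit 4, -0.30 for digit 5 and -0.13 for digit 7. For H3K4me3 it was -0.11, -0.002, -0.008, -0.08 and 0.005 in the same order. Between 1 and 3 animals of a group shared a digit, so these values carry no test. With the digit as a factor, 14 Zfp peaks fell for each mark, and 5 rose for H3K4me3 and 3 for H3K27ac. Counts over all peaks with the digit in the model are not given here.

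Single genes fell further than these medians. Zfp105, whose promoter is shown above, had the smallest p among Zfp peaks with less H3K4me3. In the peak chr9:122922584-122924114 the 7 young libraries held 3.74, 3.74, 4.11, 3.83, 3.84, 3.91 and 3.95, and the 10 of aged group 3 held 2.87, 3.29, 3.35, 3.42, 3.13, 2.65, 2.85, 2.77, 3.13 and 3.57. Every aged library was below every young one, and no other Zfp H3K4me3 peak that fell separated the groups fully. The share of all peaks with such full separation is not given here, for this peak or for those below. The change was -0.77 ± 0.11 (adjusted p = 4.34e-05), it remained at -0.63 with the digit as a factor (adjusted p = 0.00303), and it was -0.42 with the epithelium minus stroma score (adjusted p = 0.0993). Aged group 2 lay between, at 3.19 to 3.76. H3K27ac at the same promoter fell by 0.59 ± 0.19 (adjusted p = 0.0217), with 1 aged library, at 2.87, above all young ones.

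Zfp334 lost both marks at its promoter. H3K4me3 in chr2:165387334-165388542 ran from 4.12 through a median of 4.27 to 4.49 in young and from 3.24 through 3.47 to 4.19 in aged group 3, where 9 of 10 libraries lay below the young minimum. Its change was -0.68 ± 0.12 (adjusted p = 0.000431). H3K27ac ran from 1.85 through 2.25 to 2.55 in young and from 0.67 through 1.14 to 2.01 in aged group 3. That change, -0.96 ± 0.17 (adjusted p = 0.00129), was again seen in most animals, with 8 of 10 below all young libraries. Both calls held with the digit as a factor (adjusted p = 0.00769 and 0.0197) and neither with the epithelium minus stroma score (0.462 and 0.418).

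Zfp57 is the KRAB zinc finger protein that keeps DNA methylation at imprinted regions in the early embryo. Its H3K4me3 peak, chr17:37002078-37003900, spans more than 1 RefSeq start. Young libraries ran from 3.81 through 4.02 to 4.29 and aged group 3 from 2.43 through 3.25 to 3.98, with 8 of 10 below the young minimum and a change of -0.81 ± 0.19 (adjusted p = 0.0026). Its H3K27ac fell alike, from a young median of 2.58 (2.33 to 2.75) to 1.70 (1.16 to 2.34), by 0.81 ± 0.16 (adjusted p = 0.00211). With the digit as a factor the H3K4me3 change was -0.54 and missed the threshold (adjusted p = 0.0549), and the H3K27ac change was -0.68 and passed (0.0421). With the epithelium minus stroma score they were -0.07 and -0.40, and neither passed (adjusted p = 0.898 and 0.508). Aged group 1 held 3.85, 3.47, 3.64 and 3.55 for H3K4me3, of which 3.85 alone was within the young range. The contrast of aged group 1 with young did not pass for any Zfp peak.

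**Figure D3:**
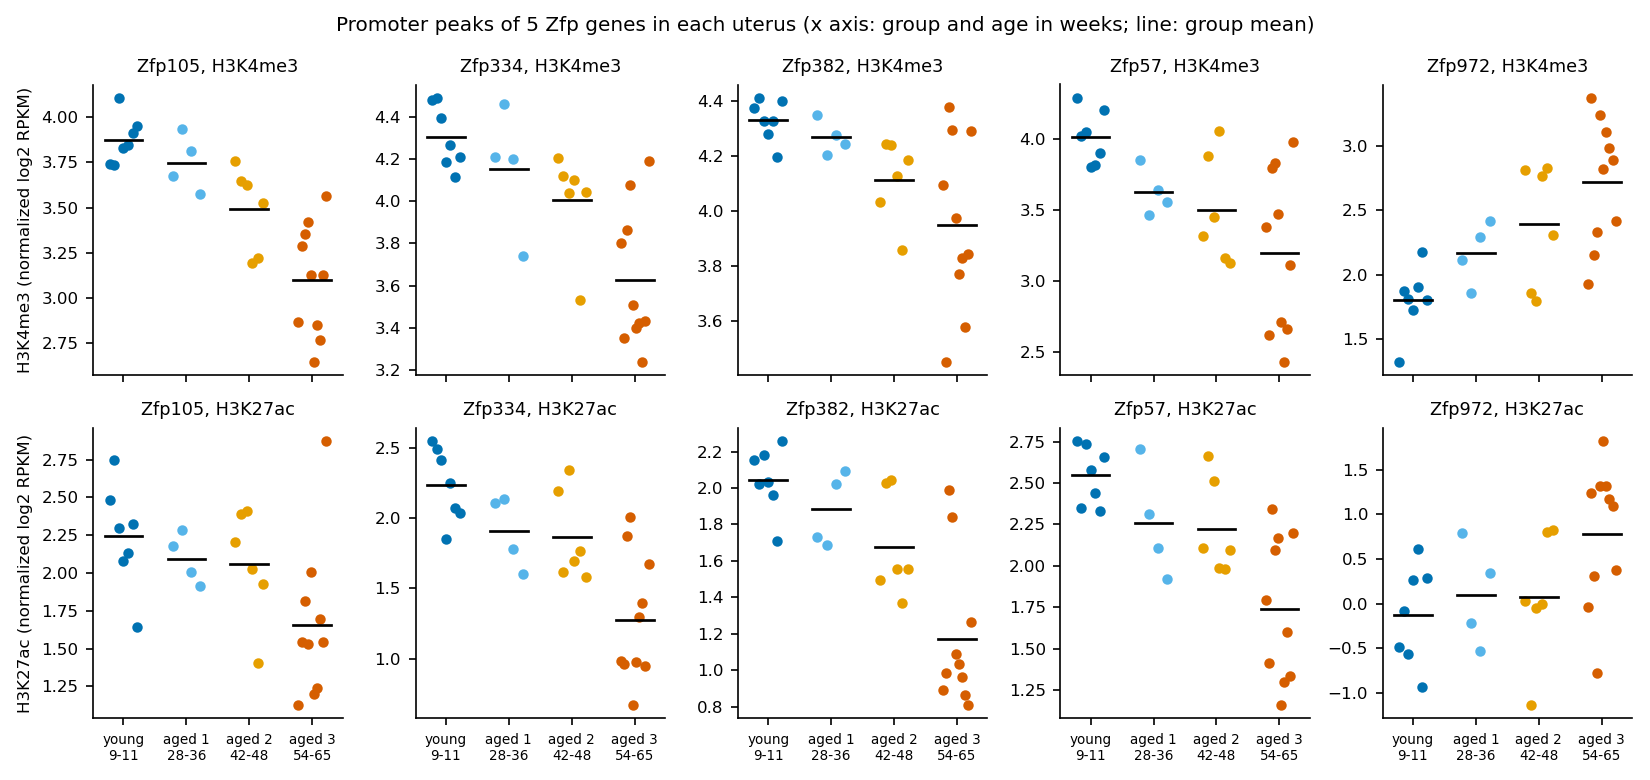
Levels (y axis, normalized log2 RPKM) of H3K4me3 (top) and H3K27ac (bottom) at the promoter peaks of Zfp105, Zfp334, Zfp382, Zfp57 and Zfp972 in each library, by group (x axis); lines are group means and each panel has its own scale. The first 4 genes are lower and Zfp972 is higher in aged group 3, with ranges that overlap those of young except for Zfp105 H3K4me3.

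Other promoters that lost H3K4me3 by the smallest p were those of Zfp286 (-0.59 ± 0.11), Zfp575 (-1.20 ± 0.23), Zfp82 (-0.43 ± 0.08), Zfp462 (-0.79 ± 0.16), Zfp647 (-0.40 ± 0.09) and Zfp39 (-0.29 ± 0.07), with adjusted p from 0.000663 to 0.00314. The Zfp575 peak, the deepest loss among them, fell from a young median of 3.09 (2.53 to 3.56) to 1.86 (0.68 to 2.88) and also lies at the start of Ethe1. For H3K27ac the promoters of Zfp382, Zfp551, Zfp78, Zfp27 and Zfp975 followed Zfp334 and Zfp57. Zfp382, a KRAB repressor, held 2.15, 2.02, 2.18, 2.03, 1.96, 1.71 and 2.26 in young and 0.89, 0.99, 1.99, 1.84, 1.09, 1.04, 0.96, 0.87, 0.81 and 1.26 in aged group 3. Replicates 3 and 4 of aged group 3 stood apart within the young range, as they did in the median over promoters, and the other 8 were below it. The change was -0.87 ± 0.16 (adjusted p = 0.00148), and with the epithelium minus stroma score it was -0.51 and missed the threshold (adjusted p = 0.394). At Zfp975 all 10 aged libraries were below all young ones, at 2.22 to 2.91 against 2.94 to 3.14 (-0.42 ± 0.09, adjusted p = 0.0043), although Gm38998 starts there too. With the digit as a factor it missed the threshold (adjusted p = 0.0538).

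Peaks of the marks were then matched by position. Of the 366 H3K4me3 peaks, 341 (93.2%) overlapped an H3K27ac peak of a Zfp gene. In 40 overlapping pairs, at 39 genes, both marks fell, which is 75.5% of the H3K4me3 peaks that fell and had a partner and 38.8% of the H3K27ac peaks that did. The matching shares over all overlapping peaks were not counted, so this sharing of calls is not shown to be particular to Zfp genes. Both marks came from the same animals, so the pairs share their sampling. By the larger of both p-values, the leading pairs beside Zfp334, Zfp462 and Zfp57 were Zfp39, Zfp583, Zfp382, Zfp90, Zfp536, Zfp563 and Zfp358. At Zfp583, for example, H3K4me3 fell by 0.57 ± 0.14 and H3K27ac by 0.65 ± 0.16 (adjusted p = 0.005 and 0.00733). In 4 pairs, at Zfp827, Zfp618, Zfp839 and Zfp972, both rose. The Zfp618 H3K27ac call there (0.78 ± 0.27, adjusted p = 0.0297) was lost without young replicate 2, 6 or 7 or aged group 3 replicate 1, 2, 6, 8 or 9, with adjusted p from 0.0518 to 0.0749. The Zfp839 H3K4me3 call (0.74 ± 0.27, adjusted p = 0.0379) was lost without young replicate 1, 2, 3, 5 or 7 or aged group 3 replicate 5, 7 or 8, with adjusted p from 0.0505 to 0.1. A single pair went opposite ways, at Zfp24, named after its values were seen, with H3K4me3 up by 0.17 ± 0.06 (adjusted p = 0.0307) and H3K27ac down by 0.28 ± 0.09 (0.0276).

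Zfp972 had the smallest p among promoter gains of H3K4me3. H3K4me3 in chr2:177924294-177926521 ran from 1.32 through 1.81 to 2.18 in young and from 1.93 through 2.86 to 3.38 in aged group 3, with 8 of 10 above the young maximum (0.92 ± 0.20, adjusted p = 0.00197). With the digit as a factor it was 0.86 and passed (adjusted p = 0.0239), and with the epithelium minus stroma score it was 0.36 and did not (0.555). Its young level was far under the Zfp promoter median of 4.18, and its promoter is the CpG-poor one printed above. H3K27ac ran from -0.93 through -0.08 to 0.61 in young and from -0.78 through 1.13 to 1.82 in aged group 3. That change of 0.91 ± 0.34 barely passed (adjusted p = 0.0441) and rested on a median of 24 reads. It missed the threshold without young replicate 1, 2, 3 or 6 or aged group 3 replicate 2, 5, 6, 7, 8 or 9 (adjusted p from 0.0676 to 0.102). It also missed it with the digit (0.62, adjusted p = 0.256), the series of mouse numbers (0.54, 0.332) or the replicate block (0.87, 0.0738) in the model, and was 0.08 with the score (0.969). Zfp704 also gained H3K4me3 at its promoter, by 0.35 ± 0.12 (adjusted p = 0.0262), a call lost without young replicate 1 or 7 or aged group 3 replicate 8 (0.0797, 0.055 and 0.0515).

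Tandem clusters of Zfp genes were compared next. Of the 372 RefSeq genes, 179 lay in 29 clusters of at least 3 genes with starts at most 200 kb apart. H3K27ac was lower at 44 of 141 promoter peaks inside clusters and 46 of 146 outside, where 19.3% of all promoter peaks fell. H3K4me3 was lower at 23 of 143 and 30 of 147, where 18.3% of all promoter peaks fell. In the chromosome 7 cluster (29768552 to 30169775, 15 genes), 14 genes had an H3K4me3 promoter peak and 5 of these fell, those of Zfp30, Zfp74, Zfp14, Zfp82 and Zfp382, with changes over the cluster from -0.43 to 0.06. H3K27ac fell at 9 of its 13 promoter peaks, all 13 changes were below 0 (-0.87 to -0.13), and their median was -0.53. The chromosome 13 cluster (67038594 to 67827000, 19 genes) had 13 genes with peaks of both marks at promoters. There H3K4me3 fell at 1, Zfp712, and H3K27ac fell at Zfp712 and rose at Zfp459, with a median of -0.10. The Zfp459 peak also lies near a start of another gene. H3K4me3 levels of these promoters ran from 3.88 to 4.90 on chromosome 7 and from 4.33 to 4.89 on chromosome 13. The difference between the clusters was not tested. Chromosome 7 as a whole held 68 Zfp H3K27ac promoter peaks, of which 30 (44.1%) fell and 97.1% had a change below 0, where 25.1% of all promoter peaks of that chromosome fell and 73.2% were below 0. H3K27ac also fell at 14 of 33 Zfp promoter peaks on chromosome 17 (42.4%), 6 of 12 on chromosome 4 and 5 of 9 on chromosome 18. Except on chromosome 14 (1 of 2 peaks), shares were lower elsewhere, as at 2 of 22 on chromosome 2 and 3 of 16 on chromosome 9. H3K4me3 fell at 5 of 32 on chromosome 17, 3 of 12 on chromosome 4 and 2 of 8 on chromosome 18. Among single chromosomes, the share over all promoter peaks was taken for chromosome 7 alone.

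**Figure D4:**
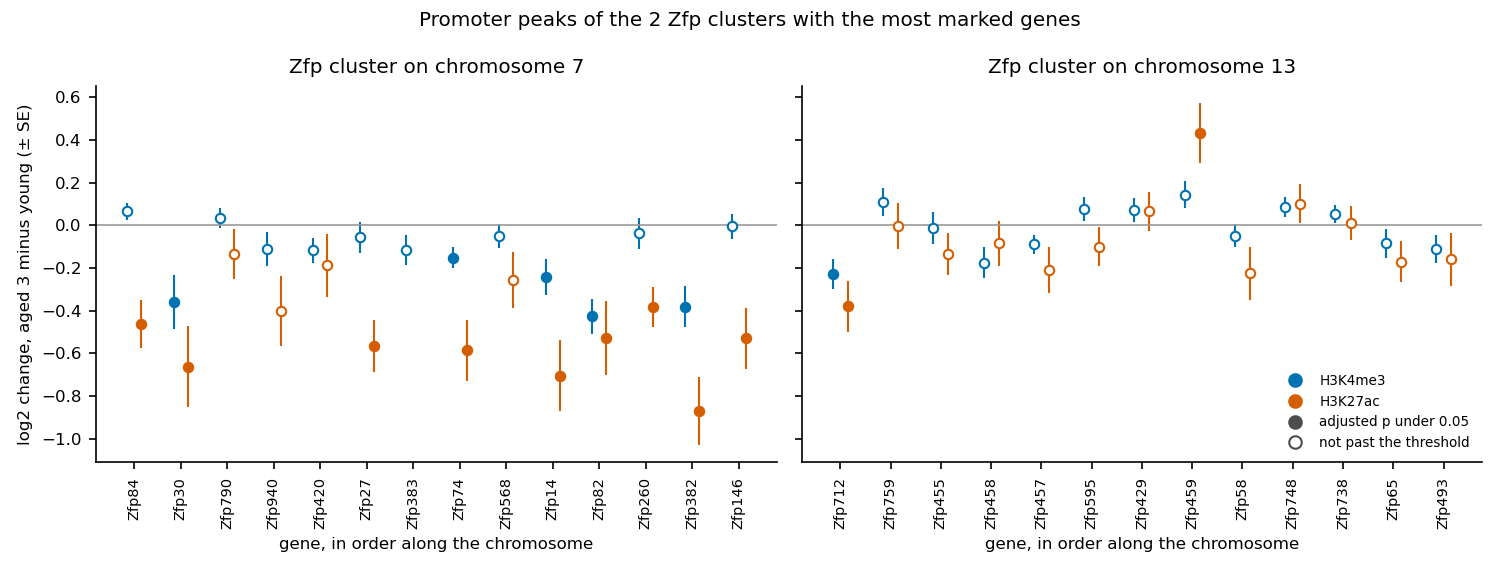
Log2 change between aged group 3 and young (y axis, ± SE) at promoter peaks of the genes of the chromosome 7 (left) and chromosome 13 (right) Zfp clusters, in gene order (x axis), H3K4me3 in blue and H3K27ac in orange; filled points passed the threshold. On the left 9 of 13 H3K27ac points are filled, all below 0, and on the right 2 of 13.

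Developmental and other sequence-specific regulators without a KRAB box were described next. Of 31 listed genes, 24 had H3K4me3 peaks, 57 in all, of which 7 rose and 13 fell, and 26 had H3K27ac peaks, 153 in all, of which 11 rose and 27 fell. The H3K4me3 gains lay at 5 genes and the losses at 6, with 4 losses at Zfp423 and 5 at Zfp536. The H3K27ac gains lay at 6 genes and the losses at 13. Over all peaks 14.2% rose and 16.4% fell for H3K4me3, and 14.4% rose and 14.9% fell for H3K27ac. At their promoters 1 of 23 H3K4me3 peaks rose and 6 fell, and 0 of 23 H3K27ac peaks rose and 7 fell (12 had an unadjusted p under 0.05), where 18.3% and 19.3% of all promoter peaks fell. Zfp462, a chromatin regulator of development, lost H3K27ac at all 4 of its peaks, by 0.64 to 1.11. The peak over its first kilobases, chr4:54946836-54950659, ran from 1.89 through 2.17 to 2.35 in young and from 0.29 through 0.92 to 1.99 in aged group 3, with 9 of 10 below the young minimum (-1.11 ± 0.20, adjusted p = 0.00115). With the epithelium minus stroma score this change was -0.60 and missed the threshold (adjusted p = 0.396). At its peak 60.9 kb from the start, all 10 aged libraries, 1.13 to 1.80, were below the young minimum of 1.87. Its H3K4me3 promoter peak fell from a young median of 3.36 (3.02 to 3.77) to 2.54 (1.82 to 3.20).

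Zfp423, a regulator of fat cell commitment and BMP signalling, and Zfp536, a repressor in neural differentiation, lost marks at some of the peaks along long genes. H3K4me3 fell at 4 of the 9 Zfp423 peaks, by 0.69 to 1.17, and H3K27ac at 3 of 15, by 0.82 to 1.53. For Zfp536, H3K4me3 fell at 5 of 7 peaks, by 0.70 to 0.95, and H3K27ac at 2 of 6, by 1.25 and 1.43. Zfp521, a regulator of mesenchymal and blood progenitors, had H3K27ac lower at 6 of 15 peaks and higher at 1. Its lead loss lay 76.8 kb into the gene, at a young median of 2.03 (1.67 to 2.25) and 1.03 (0.70 to 1.75) in aged group 3 (-0.83 ± 0.16, adjusted p = 0.00191). The gain lay 219.2 kb into the gene (0.79 ± 0.23, adjusted p = 0.0155, or 0.172 with the digit as a factor). Over all peaks 16.4% fell for H3K4me3, and 14.9% fell and 14.4% rose for H3K27ac. The 20% of Zfp423 H3K27ac peaks that fell is near that share. Peaks of a gene share its cells and are not replicates. Zfp292 lost H3K27ac at 2 of 3 peaks, by 0.60 ± 0.12 at the lead one, 4.02 kb before the RefSeq start.

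Gains within gene bodies were led by Zfp827, whose product brings the NuRD remodelling complex to telomeres. H3K27ac rose at 7 of its 15 peaks, by 0.61 to 1.48, where 14.4% of all H3K27ac peaks rose. At chr8:79095452-79098131, 69.3 kb from the start, young libraries held 1.11, 1.04, 0.93, 1.65, 1.09, 1.10 and 1.62 and aged group 3 held 2.35, 1.97, 1.93, 2.27, 2.03, 1.94, 1.70, 1.80, 1.97 and 2.00. Every aged library was above every young one (0.77 ± 0.14, adjusted p = 0.0012), replicates 3, 4 and 10 included. With the digit as a factor this change was 0.87 and passed (adjusted p = 0.0107). With the epithelium minus stroma score it was 0.71 and missed the threshold (adjusted p = 0.136). Promoter peaks of Zfp827 changed by -0.07 in both marks and did not pass. H3K4me3 was higher 56.4 kb into the gene (0.80 ± 0.26, adjusted p = 0.0221, or 0.0594 without young replicate 3). Zfp618, a partner of the methylation reader Uhrf2, gained H3K27ac at 4 of 13 peaks, by 0.78 to 0.98, and lost it at 1, by 1.02. Its lead peak, 106.9 kb from the start, rose from a young median of 0.66 (0.32 to 1.19) to 1.64 (0.75 to 2.28), with 9 of 10 above the young maximum (0.89 ± 0.22, adjusted p = 0.00668). That call was lost with the digit as a factor (adjusted p = 0.0792) and with the epithelium minus stroma score (0.658).

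**Figure D5:**
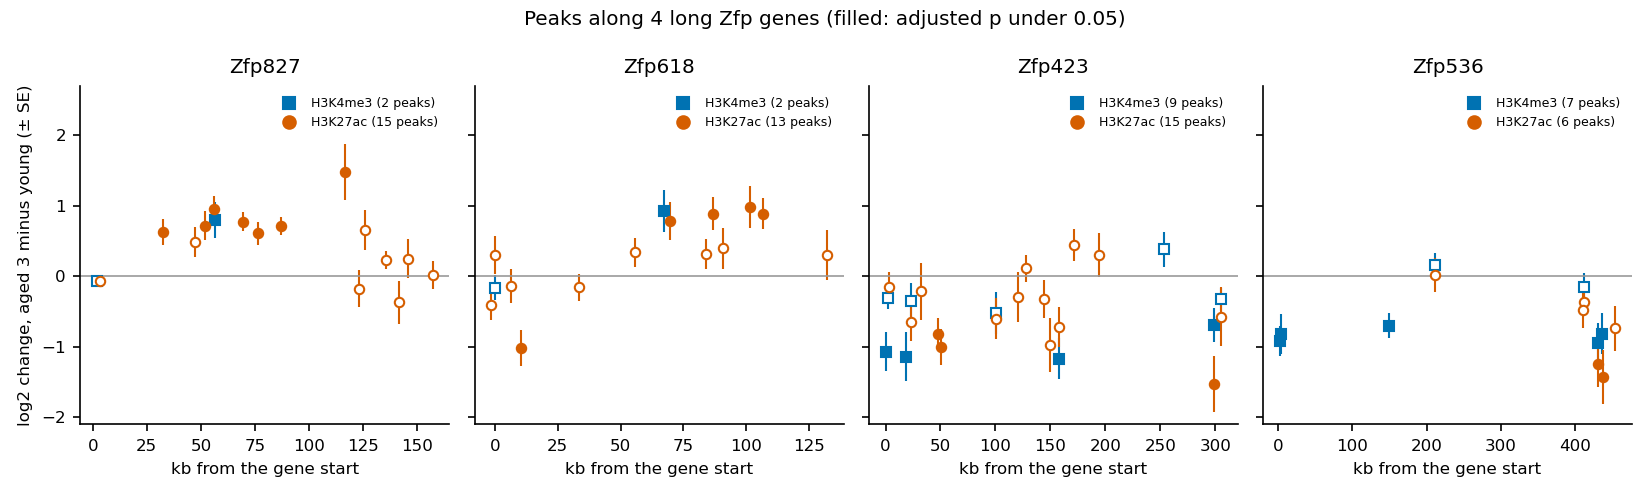
Log2 change between aged group 3 and young (y axis, ± SE) of each peak of Zfp827, Zfp618, Zfp423 and Zfp536 against its distance from the gene start in kb (x axis), H3K4me3 as blue squares and H3K27ac as orange circles; filled points passed the threshold. The 7 filled H3K27ac points of Zfp827 lie from 32.4 to 116.5 kb, above 0, and all filled points of Zfp423 and Zfp536 are below 0.

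Zfp277, which acts with Bmi1 to repress the Ink4a locus, had the smallest p among H3K4me3 gains. Its peak, chr12:40381028-40382212, lies 64.2 kb into a gene of 130.7 kb. Young libraries held 2.03, 2.49, 1.80, 2.67, 2.71, 2.49 and 1.75, and those of aged group 3 ran from 2.81 through 3.11 to 3.37, all 10 above all young ones (0.81 ± 0.15, adjusted p = 0.000394). With the digit as a factor the change was 0.72 and passed (adjusted p = 0.0126). With the epithelium minus stroma score it was 0.66 and missed the threshold (adjusted p = 0.109). Aged group 2 was already as high, from 2.80 through 3.00 to 3.32 (0.73 ± 0.16, adjusted p = 0.0496). H3K27ac there changed by 0.50 ± 0.24, which did not pass (adjusted p = 0.108). The other H3K4me3 gains by the smallest p lay in or near Zfp608 (1.18 ± 0.30), Zfp217 (0.80 ± 0.22), Zfp407 (0.42 ± 0.12), Zfp652 (0.70 ± 0.22) and Zfp229 (0.46 ± 0.16). Zfp217 is a corepressor component amplified in breast cancer, and Zfp229 lost its call without young replicate 2, 3 or 7 or aged group 3 replicate 2 or 6 (adjusted p from 0.0509 to 0.0825). For H3K27ac they lay in or near Zfp946 (1.11 ± 0.25), Zfp703 (0.92 ± 0.22), Zfp202 (0.76 ± 0.19), Zfp512 (0.71 ± 0.19), Zfp609 (0.73 ± 0.21), Zfp560 (1.342 ± 0.39) and Zfp608 (0.82 ± 0.24). With the digit as a factor none of these 7 H3K27ac gains passed (adjusted p from 0.053 to 0.201), and of the H3K4me3 gains at Zfp608, Zfp217, Zfp407, Zfp652 and Zfp229 the one at Zfp407 did (0.0251). With the epithelium minus stroma score none of the 7 passed either (adjusted p from 0.41 to 0.973). Of the same H3K4me3 gains the one at Zfp407 again did (0.00375). Several of these are thinly covered, with a median of 19 reads at the Zfp703 H3K27ac peak and at the Zfp608 H3K4me3 peak. Other peaks of some of these genes fell. H3K4me3 fell at 1 of 6 Zfp608 and 1 of 4 Zfp652 peaks, and at 0 of 3 for Zfp217 and 0 of 5 for Zfp407. H3K27ac fell at 1 of 20 Zfp608, 1 of 8 Zfp652 and 2 of 10 Zfp407 peaks, and at 0 of 12 for Zfp609. Over all peaks 16.4% fell for H3K4me3 and 14.9% for H3K27ac.

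Genes of RNA binding, translation or protein turnover came next. Of 12 H3K4me3 promoter peaks at 11 listed genes, 0 rose and 1 fell (4 had an unadjusted p under 0.05), and of 12 H3K27ac promoter peaks 0 rose and 2 fell (4 unadjusted). Over all promoter peaks 27.3% passed in either direction for H3K4me3 and 26.1% for H3K27ac. The H3K4me3 loss was at Zfp638 (-0.18 ± 0.05, adjusted p = 0.00935) and the H3K27ac losses at Zfp638 (-0.28 ± 0.10, adjusted p = 0.0304) and Zfp622 (-0.28 ± 0.09). The Zfp638 H3K27ac call missed the threshold without young replicate 1 or 2 or aged group 3 replicate 2, 6, 7 or 9 (adjusted p from 0.0501 to 0.0871). Zfp36, which speeds decay of cytokine transcripts, changed by -0.09 ± 0.07 for H3K4me3. Of 8 listed genes that silence imprints or retroelements, 5 had an H3K4me3 promoter peak and 4 an H3K27ac promoter peak, and Zfp57 was the gene that passed in both. Zfp445, which shares the imprint role of Zfp57, changed by 0.12 ± 0.07 and -0.03 ± 0.09 in the same mark order, and Zfp809, a silencer of murine leukaemia virus, by 0.06 ± 0.07 and 0.23 ± 0.09, none past the threshold.

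Partners that KRAB zinc finger proteins recruit were read from a list of 25 genes, 18 with a promoter peak of each mark. H3K4me3 passed at 0 of the 18 by limma (1 had an unadjusted p under 0.05), and H3K27ac rose at Trim33 (0.31 ± 0.10, adjusted p = 0.0245) and fell at H3f3a (-0.26 ± 0.10, adjusted p = 0.0416), where 27.3% and 26.1% of all promoter peaks passed. Trim28, the direct KRAB partner, changed by -0.06 ± 0.06 and -0.20 ± 0.13. Other zinc finger families gave a comparison. Zscan and Zkscan genes, which share the C2H2 fingers, had 3 of 19 H3K4me3 and 7 of 19 H3K27ac promoter peaks lower and 0 higher. Zbtb genes, with a BTB domain, had 3 of 27 and 5 of 27 lower and 2 and 1 higher. The shares lower over all promoter peaks were 18.3% and 19.3%. No test was made between these families and the Zfp genes.

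The middle ages gave few calls. Aged group 2 against young passed at 1 of 366 H3K4me3 peaks, that of Zfp277 (19 with an unadjusted p under 0.05, background 0.217%), and at 0 of 530 H3K27ac peaks (54 unadjusted, background 0.011%). The Zfp277 call was lost without young replicate 1, 2, 3, 6 or 7 or any replicate of aged group 2. Aged group 1 against young passed at 0 for both marks (14 and 19 unadjusted, background 0.00387% and 0%). The difference between aged group 3 and aged group 2 was itself tested, and passed at 0 H3K4me3 peaks (59 unadjusted, background 0.205%) and 0 H3K27ac peaks (99 unadjusted, background 0%). For H3K4me3 that count became 12 without aged group 2 replicate 5, and 10, 14, 15 and 1 without aged group 3 replicate 3, 4, 10 and 1. For H3K27ac it became 1 without aged group 2 replicate 5.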

How the data were processed

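H3K4me3 and H3K27ac libraries of 27 mice were used; 5 inputs were not. The authors deposited a table per mark of log2 RPKM per peak and library. Tools named per the submitters' processing notes, with no role given, were deepTools 3.5.1, ChIPseeker 1.34.1, MACS2 2.2.9.1, DESeq2, Bowtie2 and DiffBind 3.8.0, on build GRCm38. Whole reads could be recovered from 100.0% of values (tolerance 0.05), and a peak without reads holds the value of 0.9 reads. The 8 peaks per mark on chromosome Y were left out.

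Values were quantile normalized across libraries and fitted with limma 3.58.1 (R 4.3.3, mean-variance trend) as means of the 4 groups. Tests were two-sided, p-values were adjusted by Benjamini-Hochberg across every peak of a mark, and the threshold was 0.05. Tests on simulated data (aged group 3 against young) recovered 80 of 100 H3K4me3 and 57 of 100 H3K27ac peaks changed by a log2 of 1. Each mark was fitted on its own.

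Promoter peaks lie within 1 kb of a RefSeq start of GRCm38.p6, the build used for starts, clusters and promoter sequences; peak positions are the tables' own. Of the 299 and 295 gene symbols, 298 and 294 were found in the RefSeq table. Named peaks are, per mark, the 10 with the smallest p in each direction (1 per gene), the 5 highest promoter levels, pairs of both marks, role lists and the 2 clusters with the most marked promoters. The members and lists were chosen with earlier results of these data known. The split into promoter and other peaks was made after seeing the data. Alternatives changed the scaling, filter, trend, covariates, blocks and libraries.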

Additional observations from a re-analysis of the deposited data

Results flagged for a closer look

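Both results below were found by Dixon's test at the 95% level in 2 of 80 groups of named peaks, and chance alone flags about 1 in 20 groups. At the gene-body H3K4me3 peak of Zfp407, aged group 3 replicate 10 stood above the rest of its group, at 4.445 against a next value of 4.002. At the H3K4me3 promoter peak of Zfp647, young replicate 4 stood below the rest of its group, at 3.933 against 4.224.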

How the results depend on the processing

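For aged group 3 against young, 17 H3K4me3 peaks were higher and 61 lower, and 34 H3K27ac peaks were higher and 117 lower. On values as deposited the H3K4me3 counts were 6 and 31, with the lower quartile of mean levels left out 10 were higher, with the code digit as a factor 5 and 14, by series of mouse numbers (under 100, or 100 and over) 8 and 18, with the epithelium minus stroma score 2 and 0, and without digit 6 they were 4 and 11. The H3K27ac counts were 3 and 14, 16 and 36, 2 and 1, and 5 and 12 for the digit, the series, the score and without digit 6. Scaling as deposited moved the median change of all H3K4me3 peaks from -0.02 to -0.14. For aged group 2 against young the 1 H3K4me3 call became 0 under every alternative in scaling, filter, trend, factor, block or sets of animals except median centring (with single libraries left out it was kept without young replicate 4 or 5), and aged group 3 against aged group 2 gave 1 with the series. Leaving out the 3 animals with under 40% of H3K4me3 reads in peaks, a choice made after seeing the data, gave 12 and 48 for H3K4me3 and 25 and 81 for H3K27ac. At promoters this gave 42 lower H3K4me3 and 56 lower H3K27ac peaks, and without digit 6 there were 10 and 7, with the digit as a factor 12 and 9, and with the score 0 and 0. These counts cover Zfp peaks alone, and the shares over all peaks under each alternative are not given here. The cause was not tested in any of these cases.

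With the replicate number as a block, 13 H3K4me3 peaks were higher and 52 lower, and 30 H3K27ac peaks higher and 102 lower. The numbers do not pair the samples: deviations of the 7 same-numbered pairs correlated from -0.224 to 0.201 for H3K4me3 and from -0.3 to 0.266 for H3K27ac, and 1 and 2 of the 7 correlated best with their own number.

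With 1 library left out, the counts ranged from 9 to 23 (H3K4me3 higher), 44 to 86 (lower), 27 to 49 (H3K27ac higher) and 83 to 156 (lower), from 0 to 1 for aged group 2 against young (H3K4me3), and for aged group 3 against aged group 2 from 0 to 15 (H3K4me3) and 0 to 1 (H3K27ac). Lower promoter peaks ranged from 39 to 73 for H3K4me3 and from 61 to 119 for H3K27ac.

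Of the 67 named changes, 29 kept their side of the threshold and their direction with the digit as a factor, 44 with the series and 3 with the score. Signs turned with the score for H3K4me3 at Zfp229 (-0.010), Zfp418 (-0.086), Zfp369 (0.013), Zfp938 (0.057), Zfp235 (0.0071), Zfp583 (0.024), Zfp382 (0.0092), Zfp536 (0.046) and Zfp563 (0.056), and for H3K27ac at Zfp317 (0.017) and Zfp618 (-0.13). They also turned for Zfp418 H3K4me3 on values as deposited (-0.017), for Zfp235 H3K4me3 without the 3 animals (0.0092), and for Zfp112 H3K27ac when median centred (0.068), with the series (0.087) and without digit 6 (0.024). Depth limits the smallest peaks most: 355 of 366 H3K4me3 and 515 of 530 H3K27ac peaks had a median of 10 or more reads.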
